A study of Gracilariopsis lemaneiformis with 12 samples.

Results

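Untreated tissue of the red seaweed Gracilariopsis lemaneiformis, strain 981, was compared at day 3 and day 1 of a hormone experiment. The comparison uses 6 of the 12 RNA-seq libraries of the series, chosen by their labels: 3 untreated controls at day 3 and 3 untreated controls at day 1. The other 6 libraries came from tissue of the same strain given 100 µM indole-3-acetic acid (IAA) for 3 days or 1 day, with 3 libraries each, and appear below only where the change over time in controls is set against that with IAA. All libraries carry the tissue label rhizoids, with branch rhizoids and 2 cm pieces of primary rhizoid named as the source. The wording of the series' design also mentions branches and may mean that different tissue was taken on the 2 days, in which case time and tissue cannot be told apart. Nothing in the labels says that replicates came from separate cultures, so the spread between libraries may be partly technical.

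Gracilariopsis lemaneiformis is farmed as a source of agar, a galactan of its cell wall. Rhizoids are the slender outgrowths by which many algae hold on to a surface. IAA is an auxin, a class of plant growth hormones, and untreated tissue kept over the same time is the baseline against which its effect is read. A change in that baseline, which this comparison measures, enters any contrast of IAA with control at a later day.

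The values are FPKM, fragment numbers scaled to the length of each sequence and to library size, deposited for 30780 assembled sequences. The files used here pair no ID with a gene name, a function or a sequence, so no gene group can be described and only 4 loci are named. A locus here is the sum of all contigs that share the ID text before ".Contig", or a single Unigene. This gave 25766 loci, of which 23287 are Unigenes and 2479 are contig clusters. Of these, 11044 loci had a mean of at least 1 FPKM over the 12 libraries and were tested, 9133 Unigenes and 1911 clusters. The other 14722 loci were too low to test. Changes are differences of log2(FPKM + 1), day 3 minus day 1, which understates the change of low loci. A call is an adjusted p under 0.05 by limma with Benjamini-Hochberg adjustment over all tested loci.

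Summed FPKM was 291205 to 295199 in day-3 controls and 300639 to 304153 in day-1 controls. Absolute depth is unknown, but low Unigene values lay near whole multiples of the value of 1 read, which put relative depth at 1.004 in all day-3 controls and at 1.011 to 1.021 in day-1 controls. In the 2017 low Unigenes used for this, 1 read was worth a median of 0.271 FPKM, so values near 1 FPKM there rest on few reads. Pearson's r across the tested loci was 0.990 to 0.993 for the 6 pairs of control libraries of the same day and 0.963 to 0.970 for the 9 pairs across days; loci are not independent replicates.

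Most low-level loci of the untreated transcriptome were called lower at day 3 on the deposited scale. This majority did not hold with median-of-ratios size factors, where 2416 of 5992 loci of 1 to 5 FPKM were lower and 595 higher. Nor did it hold after quantile normalization, which forces 1 distribution on all libraries, with 820 lower and 835 higher. As deposited, 1500 (13.6%) of the 11044 tested loci were higher and 6387 (57.8%) lower at day 3 than at day 1. Thus 7887 (71.4%) passed the test and 3157 did not. The 6387 lower loci had a median mean abundance of 2.49 FPKM and a median change of -0.69 on the log2 scale, with 10% of them below -1.13 and 10% above -0.18. The 1500 higher loci had a median abundance of 37.1 FPKM and a median change of 0.27, with 90% of them below 0.88. The 3 day-3 libraries lay entirely below the 3 day-1 libraries for 6409 loci (58.0%) and entirely above them for 1582 (14.3%). In bulk tissue, fewer cells of a type and less RNA per cell cannot be told apart.

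**Figure D1:**
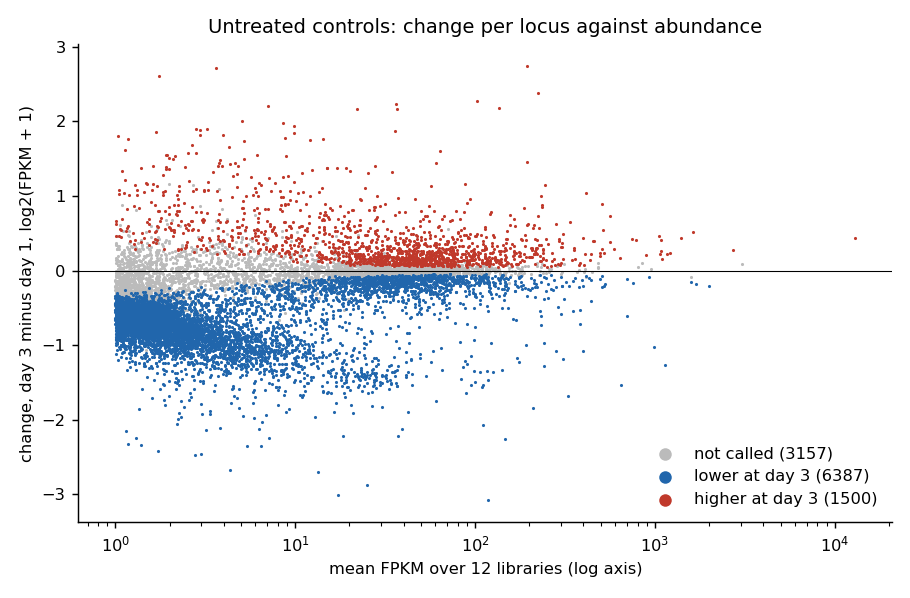
Each point is 1 of the 11044 tested loci in untreated controls, with its mean FPKM over the 12 libraries on a log axis and its change, day 3 minus day 1, in log2(FPKM + 1). Blue points (6387 lower loci) fill the low-abundance side below 0, while red points (1500 higher loci) lie mostly at 20 FPKM or more (1010 of them) and close to 0.

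On the deposited scale, large changes were mainly falls. At least 1 on the log2 scale separated the days for 124 higher loci (1.12%) and 1076 lower loci (9.74%), and at least 2 for 11 higher loci (0.0996%) and 25 lower loci (0.226%). Of the 124 large rises 120 were Unigenes, and of the 1076 large falls 987 were Unigenes and 89 were clusters. This balance turned with the scaling: loci with a called change of at least 1 numbered 399 higher and 168 lower with median-of-ratios size factors, and 270 higher and 265 lower after quantile normalization.

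The change depended on the level of the locus. Among 5992 loci with means of 1 to 5 FPKM, rises numbered 203 and falls 4212, with a median change of -0.62. Loci between 5 and 20 FPKM, 1814 in number, gave 287 rises and 969 falls (median -0.20). The 3238 loci at 20 FPKM and above divided almost evenly, into 1010 rises and 1206 falls (median -0.02). Among them, the 536 loci above 100 FPKM had 238 rises and 190 falls, with a median of 0.04.

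A fall to less than 0.5 times the day-1 level was common among low loci and rare among abundant ones. As plain ratios of group means, with no pseudocount, the day-3 mean was below 0.5 times the day-1 mean for 3377 loci of 1 to 5 FPKM (56.4%). The number was 474 (26.1%) for loci of 5 to 20 FPKM and 148 (4.57%) for loci of 20 FPKM or more. The class of 5 to 20 FPKM was the most spread out, with its lowest 25% of changes at or below -0.89 and its highest 25% at or above 0.05. The median coefficient of variation between libraries of 1 day was 22.4% at day 3 and 16.9% at day 1 for loci of 1 to 5 FPKM, against 2.28% and 2.95% for loci of 20 FPKM or more. A change of a given size is therefore easier to call in an abundant locus.

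**Figure D2:**
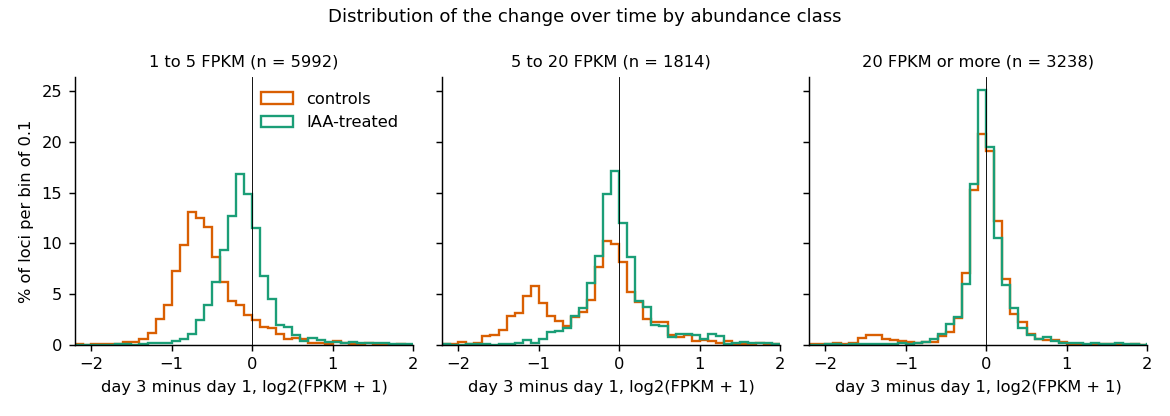
Share of loci in each bin of 0.1 of the change over time, day 3 minus day 1 in log2(FPKM + 1), for 3 classes of mean abundance, in controls (orange) and IAA-treated tissue (green). In controls the class of 1 to 5 FPKM is centred near its median of -0.62, the class of 5 to 20 FPKM shows a second hump below -0.8, and the class of 20 FPKM or more is centred near 0. The few loci beyond the axis limits are not drawn.

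These directions are on the deposited scale. Of the calls, 19% were higher as deposited, 23% after rescaling to a common sum and 20.6% when scaled to loci of 20 FPKM or more. Median-of-ratios size factors gave 59.6% and quantile normalization 53.3%, and these scalings moved the median change of all tested loci from its deposited -0.35 by 0.37 and 0.34. With size factors, 595 loci of 1 to 5 FPKM were higher and 2416 lower (median -0.31), and 2991 loci of 20 FPKM or more were higher and 170 lower (median 0.54). Quantile normalization forces 1 distribution on all libraries, and under it the low class had 835 higher and 820 lower (median -0.07) and the abundant class 1143 higher and 907 lower (median 0.02). The lower position of the low class relative to the abundant class was almost gone under quantile normalization. It held under size factors, with class medians further apart than as deposited. These multiply each library by a single number, so beyond the effect of the pseudocount they could not change it.

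The same shift was visible in each library as a share of summed FPKM. The 5992 loci of 1 to 5 FPKM took 2.67%, 2.65% and 2.79% in the day-3 controls, against 5.02%, 4.59% and 4.56% in the day-1 controls. The 14722 untested loci below 1 FPKM took 1%, 0.990% and 1.07% at day 3, against 1.92%, 1.76% and 1.73% at day 1. Both sets were lower in every day-3 library than in every day-1 library.

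Abundant loci took the other part of the sum, and shares add up to 100%. The 3238 loci of 20 FPKM or more took 90.5%, 90.6% and 90.2% of summed FPKM in day-3 controls, against 86.0%, 86.8% and 86.9% in day-1 controls. The 10 most abundant loci alone took 11.2%, 11.4% and 10.6% at day 3, against 8.87%, 9.01% and 9.28% at day 1. None of these sets overlapped between days, and each had an exact two-sided permutation p of 0.1, the smallest that 3 against 3 libraries allow. Among the 20 most abundant loci, with means of 920.7 to 13020 FPKM, 11 were higher and 6 lower at day 3 on the deposited scale, with changes from -1.27 to 0.52.

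**Figure D3:**
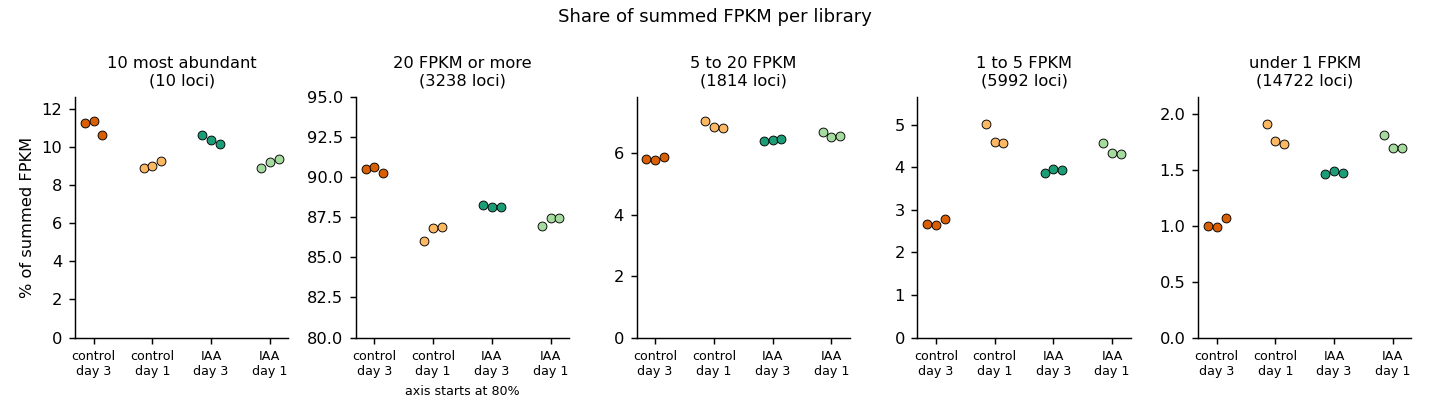
Share of summed FPKM (%) taken by 5 sets of loci in each library, with the groups in the order control day 3, control day 1, IAA day 3 and IAA day 1, and 1 point per library. Day-3 controls lie above day-1 controls for the 10 most abundant loci and for loci of 20 FPKM or more (this axis starts at 80%), and below them for the 3 lower classes, where day-3 IAA libraries lie between.

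More loci were listed at 0 in day-3 controls, 6824, 6833 and 6644 of 25766, against 5849, 5975 and 6032 in day-1 controls. Among the tested loci these numbers were 60, 51 and 52 at day 3, against 17, 21 and 19 at day 1. In all, 145 loci were listed at 0 in every day-3 control and above 0 in every day-1 control, and 39 loci showed the opposite. The 145 had a median day-1 mean of 0.373 FPKM and a highest of 5.25 FPKM. Of the 145, 8 passed the filter on low values. Values this low may rest on few reads.

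The 2 loci named as higher at day 3 are Unigene29258_All and Unigene2517_All, and which of them changed more depends on the scale. Unigene29258_All had 344.9, 337.96 and 340.04 FPKM in day-3 controls, against 51.25, 50.21 and 48.59 FPKM in day-1 controls. The day-3 libraries agree within a few FPKM and stand well clear of day 1. The log2 change was 2.75 ± 0.05 (SE; limma adjusted p = 3.095e-12), a ratio of means of 6.82. With IAA the same locus had 352.4, 356.73 and 359.43 FPKM at day 3, against 28.5, 30.33 and 35.01 FPKM at day 1, which is 3.47 ± 0.05 on the log2 scale (limma adjusted p = 7.48e-13).

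Unigene2517_All is a low locus. It had 9.54, 10.32 and 9.46 FPKM in day-3 controls, against 0.62, 0.57 and 0.76 FPKM in day-1 controls. The days did not overlap, but the day-1 values may stand for only a few reads each. The log2 change was 2.71 ± 0.17 (SE; limma adjusted p = 8.198e-08), and the ratio of means was 15, above that of Unigene29258_All. With a pseudocount of 0.1 FPKM the log2 changes were 3.73 for Unigene2517_All and 2.77 for Unigene29258_All. With IAA it had 2.95, 2.85 and 5.03 FPKM at day 3, against 0.66, 0.55 and 0.19 FPKM at day 1, so that day-3 IAA libraries lay below every day-3 control and above every day-1 library.

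The 2 loci named as lower at day 3 are Unigene7611_All and Unigene20229_All, whose order also depends on the scale. Unigene7611_All had 35.99, 37.29 and 34.18 FPKM in day-3 controls, against 323.09, 301.24 and 306.92 FPKM in day-1 controls. The log2 change was -3.08 ± 0.05 (SE; limma adjusted p = 4.206e-13), and the ratio of means was 0.115. With IAA it had 57.25, 54.87 and 59.26 FPKM at day 3, against 64.04, 67.57 and 72.97 FPKM at day 1, which is -0.25 ± 0.05 on the log2 scale (limma adjusted p = 0.001496). The 3 day-1 controls were thus the only libraries above 300 FPKM, and the other 9 lay below 73 FPKM.

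Unigene20229_All showed another pattern. It had 1.9, 0.73 and 2.24 FPKM in day-3 controls, against 25.1, 18.16 and 15.9 FPKM in day-1 controls. This is -3.01 ± 0.22 on the log2 scale (SE; limma adjusted p = 2.586e-07). The ratio of means was 0.0823, a larger fall than that of Unigene7611_All, and with a pseudocount of 0.1 FPKM the log2 changes were -3.63 for Unigene20229_All and -3.11 for Unigene7611_All. With IAA it had 16.53, 14.6 and 21.28 FPKM at day 3, against 31.9, 28.94 and 29.75 FPKM at day 1, which is -0.77 ± 0.22 on the log2 scale (limma adjusted p = 0.01623). Here the day-3 controls were the only libraries near 0. All 4 loci are single Unigenes, so summing contigs did not touch their values.

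**Figure D4:**
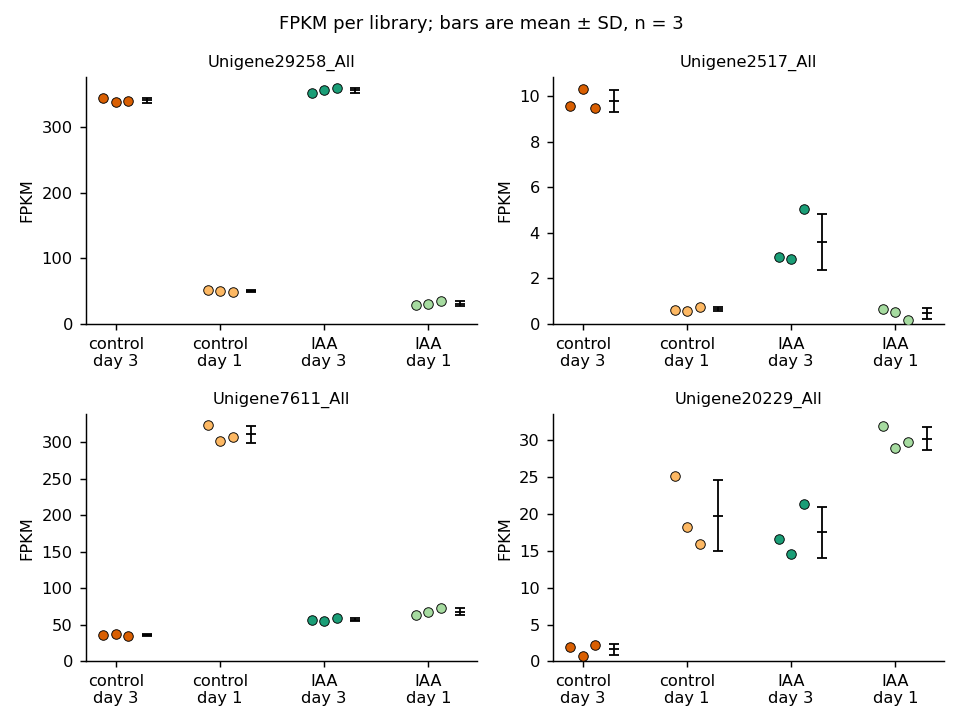
FPKM of the 4 named loci in each of the 12 libraries, as points, with the mean ± SD of each group (n = 3) beside them, in the order control day 3, control day 1, IAA day 3 and IAA day 1. Unigene29258_All and Unigene2517_All are higher in day-3 than in day-1 controls, Unigene7611_All is high only in day-1 controls, and Unigene20229_All is near 0 only in day-3 controls.

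On the deposited scale, fewer loci fell over time with IAA. Over the same 2 days IAA-treated tissue had 1465 loci higher (13.3%) and 2283 lower (20.7%). The IAA day-3 mean was below 0.5 times the day-1 mean for 257 loci of 1 to 5 FPKM (4.29%), against 3377 in controls. The change over time differed between IAA and controls by limma's interaction contrast for 4753 loci (43.0%), and was more positive with IAA for 3907 of them (35.4%) and more negative for 846 (7.66%). After quantile normalization 2960 loci differed, and with median-of-ratios size factors 5352.

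The control and IAA time comparisons share no library, but both use the same estimate of the spread of each locus. Their calls are therefore not independent and are only set side by side. Of the 6387 loci lower in controls, 1724 were also lower with IAA, which is 27% of the control list and 75.5% of the IAA list. Another 258 were higher with IAA and 4405 were not called. Of the 1500 higher in controls, 765 were higher with IAA, which is 51% of the control list and 52.2% of the IAA list, and 169 were lower. Over all 11044 tested loci, 20.7% were lower and 13.3% higher with IAA, against 57.8% lower and 13.6% higher in controls.

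The loci with large changes in controls were followed in the same way. Of the 124 large rises in controls, 92 (74.2%) were called higher with IAA, with a median change of 1.04 there and 1.34 in controls. Of the 1076 large falls, 487 (45.3%) were called lower with IAA, with a median of -0.30 there and -1.17 in controls. Over all tested loci, 13.3% were called higher and 20.7% lower with IAA. The large changes were picked on the control libraries, which by itself makes their control medians larger.

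The share of calls was larger for loci than for assembled sequences. Per assembled sequence 11.9% of 14065 were higher and 45.8% lower, against 13.6% and 57.8% of loci. Of 4932 tested cluster contigs, 686 were higher and 1115 lower at day 3, whereas of the 1911 tested clusters 437 were higher and 861 lower. The median absolute log2 change was 0.20 for contigs and 0.15 for clusters.

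Contigs of 1 cluster did not always move together. Among 1519 clusters with at least 2 tested contigs, 821 had calls in 1 direction only, 525 had no contig called and 173 had contigs called in both directions. In those 173 the contigs differed by a median of 1.00 on the log2 scale, while the sums had a median absolute change of 0.07. Of these sums 53 were higher, 35 lower and 85 not called. Conversely, 210 of the 525 clusters with no contig called were called as sums. Contigs of a cluster may share reads, and no source used here says how such reads were divided.

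The share of falling loci was smaller for clusters, which were more abundant. Over all tested loci 45.1% of clusters and 60.5% of Unigenes were lower. Within the class of 1 to 2 FPKM the values were 68.4% of 136 clusters and 68.4% of 3723 Unigenes, and in the class of 20 to 100 FPKM 38% of 1083 clusters and 37.3% of 1619 Unigenes. Above 100 FPKM it was 41.1% of 263 clusters and 30% of 273 Unigenes. Called falls of at least 1 on the log2 scale were less frequent among clusters at like abundance. They made up 12.8% of clusters and 22.3% of Unigenes at 5 to 20 FPKM, and 2.31% and 6.11% at 20 to 100 FPKM. Above 100 FPKM these shares were close, at 3.8% and 4.03%.

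The falling loci were unevenly placed along the Unigene numbering, which no label explains. Unigene numbers run up to 32461, and the block from 1001 to 2500 was singled out after its values were seen, so no test is given. In that block 69 of 288 Unigenes of 1 to 5 FPKM (24%) were lower at day 3, with a median change of -0.11. In the block from 1 to 1000 it was 272 of 367 (74.1%, median -0.65), in that from 2501 to 9500 it was 2034 of 2676 (76%, median -0.66), and in that from 20001 to 28000 it was 1486 of 2024 (73.4%, median -0.63). The remaining blocks gave lower shares: 151 of 314 low Unigenes numbered 28001 to 32461 were lower (48.1%, median -0.48), and 10.3% of the 39 numbered 10001 to 20000 (median 0.08). Median abundance within the class was 2.36 FPKM in the block from 1001 to 2500 and 1.85 FPKM in that from 2501 to 9500.

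The gap between these blocks was present under each of the 4 other scalings, but these could hardly have closed it. Size factors, rescaling to a common sum and scaling to abundant loci each multiply a library by a single number. This moves all loci of a library alike, apart from the effect of the pseudocount. Quantile normalization moves loci of like value in a library alike, whatever their ID number. With size factors the median change of low Unigenes was 0.29 in the block from 1001 to 2500 and -0.33 in that from 2501 to 9500. After quantile normalization it was 0.44 and -0.10, after rescaling to a common sum -0.12 and -0.89, and when scaled to abundant loci -0.10 and -0.64. In bins of 500 numbers, the share of low Unigenes called lower was 20% to 27.5% in the 3 bins of the block and 59% to 88.7% in the other 16 bins up to 9500. Above 2500 the share in the class of 5 to 20 FPKM varied along the numbering between 46.3% and 96%, with the highest value in the bin from 8501 to 9000. Unigenes of 20 FPKM or more varied too, though some bins hold few of them. In that class 12 of 13 were lower from 3501 to 4000, 20 of 22 from 6001 to 6500 and 10 of 11 from 8501 to 9000. Over the whole block from 2501 to 9500 it was 499 of 1248 (40%), with 404 higher. With IAA the medians of low Unigenes were -0.08 in the block from 1001 to 2500 and -0.10 in that from 2501 to 9500.

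**Figure D5:**
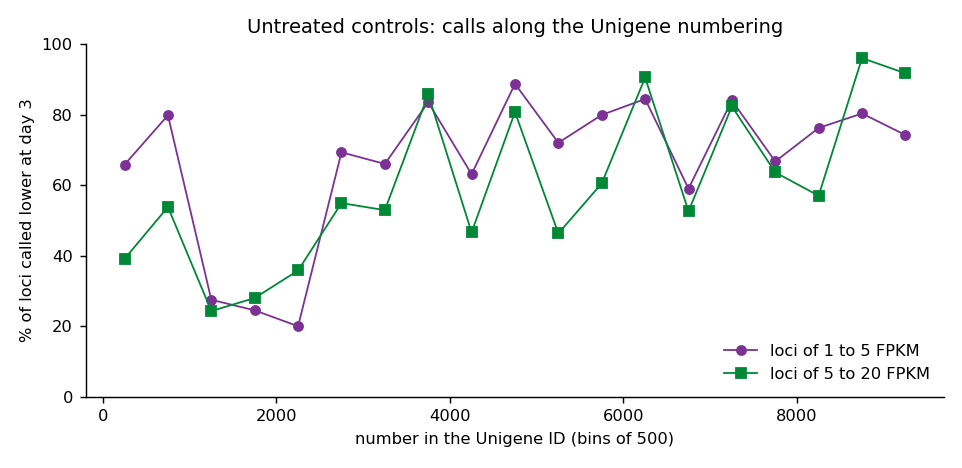
Share of Unigenes called lower at day 3 in untreated controls (%), in bins of 500 ID numbers up to 9500, for loci of 1 to 5 FPKM (purple circles) and of 5 to 20 FPKM (green squares). The 3 bins from 1001 to 2500 lie at 20% to 35.8% in both classes, and the other bins of the low class lie at 59% or more.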

How the data were processed

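Rhizoid RNA from a column kit was sequenced from standard Illumina libraries, per the labels' protocols. The FPKM values were computed and deposited by the authors with 2 decimals, per the file headers. Bowtie2 2.2.5 is named without a role, per the submitters' processing notes, and no source used here names the assembler, the quantifier or any filter. The authors' tables of IAA against control were not used here.

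Contigs were summed to loci, loci with a mean under 1 FPKM over the 12 libraries were left out, and log2(FPKM + 1) was modelled by limma 3.58.1 under R 4.3.3 with 4 group means and a variance trend. All libraries share 1 estimate of the spread. Shares of summed FPKM were compared by exact permutation over 3 against 3 libraries. Named loci had an adjusted p under 0.05, at least 5 FPKM in the higher control group and no overlap between days, and those with the 2 largest changes each way were taken. The fit and the depth estimate were tested on simulated data. Other scalings, pseudocounts, filters, fits and left-out libraries were tried. The comparison, classes and rules were chosen with earlier results of these data known, and the ID blocks after their values were seen.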

Additional observations from a re-analysis of the deposited data

Results flagged for a closer look

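The change from day 1 to day 3 differed between IAA-treated tissue and controls for 4753 of 11044 loci by limma's interaction contrast (adjusted p under 0.05). All 4 named loci were among them. They were chosen for large changes in controls, and the control change enters this difference.

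The change with IAA minus the change in controls was 0.73 ± 0.08 on the log2 scale for Unigene29258_All (SE; limma adjusted p = 1.55e-05) and -1.07 ± 0.24 for Unigene2517_All (limma adjusted p = 0.004273). It was 2.83 ± 0.07 for Unigene7611_All (limma adjusted p = 9.483e-11) and 2.24 ± 0.31 for Unigene20229_All (limma adjusted p = 0.0001341). In Unigene7611_All the day-1 libraries differ most between treatments, with 64.04 to 72.97 FPKM with IAA and 301.24 to 323.09 FPKM in controls. In Unigene20229_All it is the day-3 libraries, with 14.6 to 21.28 FPKM with IAA and 0.73 to 2.24 FPKM in controls.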

How the results depend on the processing

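Counts of calls depended on scaling and on the filter. Higher and lower loci numbered 4614 and 3122 with median-of-ratios size factors and 2660 and 2327 after quantile normalization, and for assembled sequences 5280 and 3820 with size factors and 2818 and 2717 after quantile normalization. With a mean of at least 5 FPKM required, 2157 loci and 2184 sequences were lower, as fewer features were tested. Loci whose change differed between IAA and controls then numbered 2550. They numbered 2960 after quantile normalization and 5352 with size factors. For the scalings the cause was not tested. Loci changed by at least 1 on the log2 scale numbered 399 higher and 168 lower with size factors and 270 higher and 265 lower after quantile normalization, while those lower numbered 3643 with a pseudocount of 0.1 FPKM and 2694 after rescaling to a common sum. Leaving out 1 control library gave 1350 to 1433 loci higher and 5815 to 6118 lower. The named loci kept their direction and their call in every alternative that tested them, with log2 changes of 2.73 to 3.30 for Unigene29258_All, 2.67 to 3.73 for Unigene2517_All, -3.11 to -2.53 for Unigene7611_All and -3.63 to -2.56 for Unigene20229_All. Unigene2517_All falls under the 5 FPKM filter. The order of the named loci within a direction turned with the pseudocount of 0.1 FPKM and with rescaling to a common sum, for the higher pair also after quantile normalization, for the lower pair also with size factors, and in some fits without 1 library. Replicate numbers did not pair the control libraries: the deviations of same-numbered libraries correlated at -0.044 to -0.036. With the replicate block, in control libraries only, 1316 loci were higher and 5985 lower. Values near 1 FPKM may rest on few reads, as in the low Unigenes used for the depth estimate, which limits single low loci.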

Other observations

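Day-1 replicates were not alike for a small set of loci. Of 20 loci listed at 0 in all day-3 controls with a day-1 mean of at least 1 FPKM, 10 had a day-1 replicate 1 value below 1/3 of both other replicates. All 10 are Unigenes with numbers from 29654 to 31164. Their summed level was 0 FPKM in every day-3 control, against 7.25, 43.23 and 42.6 FPKM in day-1 controls. With IAA it was 0.46, 0.16 and 0.16 FPKM at day 3, against 9.14, 0 and 0.27 FPKM at day 1. They were picked on these values, so no test is given.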
